A study of Homo sapiens with 34 samples.

Results

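The genes described here are the 10 subunits of Polycomb repressive complex 2 (PRC2) measured in LNCaP prostate cancer cells: the 6 core genes EZH2, EZH1, EED, SUZ12, RBBP4 and RBBP7, and the 4 accessory genes JARID2, MTF2, PHF19 and AEBP2. They were taken by symbol from the deposited RNA-seq table, where they are 10 of 28071 listed genes. All 10 were found again by gene identifier in the table of RNA immunoprecipitation (RIP), which lists 25035 genes. On GRCh38.p14 as annotated by RefSeq, the core genes span chr7:148807383-148884291 (EZH2, minus strand), chr17:42700275-42745040 (EZH1, minus), chr11:86244753-86287615 (EED, plus), chr17:31937007-32001038 (SUZ12, plus), chr1:32651208-32686211 (RBBP4, plus) and chrX:16844341-16870362 (RBBP7, minus). The accessory genes span chr6:15246069-15522042 (JARID2, plus), chr1:93079283-93139076 (MTF2, plus), chr9:120855651-120904128 (PHF19, minus) and chr12:19404072-19522227 (AEBP2, plus). These spans were also set against the deposited peak lists for EZH2 and for the histone mark H3K27me3.

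LNCaP is an established human line of luminal prostate cancer cells that depends on androgen for growth. The study set an androgen-independent derivative (AI), kept in medium with charcoal-stripped serum, against the androgen-dependent cells (AD) in RPMI1640 medium. RNA-seq covered 6 groups of 2 libraries: AI and AD cells collected 24 h after siRNA against EZH2 (siEZH2), AI and AD cells 24 h after a mock siRNA, and untreated AI and AD cells. RIP with an EZH2 antibody or with IgG had 2 libraries each in AI and in AD cells, and the peak lists used here come from 2 AI and 2 AD samples for H3K27me3 and from 1 AI and 2 AD samples for EZH2. Neither the labels nor the tables say whether replicates were separate cultures, so every p-value measures the spread between these libraries, which may be technical. The treatment protocol names only LNCaP/abl as transfected, yet some libraries titled AD have siRNA in their names. Groups follow the titles here, and results for transfected AD cells depend on them. AI is 1 derived line kept in its own medium, so nothing here separates androgen independence from the medium or from other properties of that line.

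PRC2 places methyl groups on a lysine of histone H3, and its trimethylated product, H3K27me3, marks silent genes. EZH2, or its less active paralog EZH1, is the catalytic subunit and works only when bound to EED, which reads the mark, and SUZ12, the scaffold. RBBP4 and RBBP7 are closely related histone-binding proteins that also serve other chromatin complexes, and the accessory subunits fall into alternative assemblies: MTF2 or PHF19, Polycomb-like proteins that bind CpG-rich DNA, in one, and JARID2 with AEBP2 in the other. EZH2 is well known for its high level in advanced prostate cancer.

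The promoters of 5 members are shown because the results turn on them. Against AD cells of the same state, EZH2 and SUZ12 were higher in untreated AI cells, and EED and RBBP7 were lower in transfected AI cells. The PHF19 start shown, an internal one, lay under an H3K27me3 peak in only 1 AI list. Each sequence is the 250 bases before a RefSeq start (GRCh38.p14), 5′ to 3′ on the gene's strand, and capitals mark a match to an E2F-type motif.
EZH2 promoter, chr7:148884292-148884541, minus strand: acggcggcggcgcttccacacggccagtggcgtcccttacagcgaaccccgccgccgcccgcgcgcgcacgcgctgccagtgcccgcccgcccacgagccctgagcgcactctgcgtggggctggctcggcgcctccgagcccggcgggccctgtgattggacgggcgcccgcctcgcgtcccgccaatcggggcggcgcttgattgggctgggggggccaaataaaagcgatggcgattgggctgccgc
SUZ12 promoter, chr17:31936757-31937006, plus strand: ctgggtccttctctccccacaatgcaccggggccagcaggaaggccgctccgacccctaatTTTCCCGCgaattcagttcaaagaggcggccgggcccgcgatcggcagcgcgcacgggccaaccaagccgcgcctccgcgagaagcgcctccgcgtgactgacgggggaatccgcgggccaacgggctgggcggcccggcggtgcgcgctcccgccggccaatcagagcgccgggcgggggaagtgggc
EED promoter, chr11:86244503-86244752, plus strand: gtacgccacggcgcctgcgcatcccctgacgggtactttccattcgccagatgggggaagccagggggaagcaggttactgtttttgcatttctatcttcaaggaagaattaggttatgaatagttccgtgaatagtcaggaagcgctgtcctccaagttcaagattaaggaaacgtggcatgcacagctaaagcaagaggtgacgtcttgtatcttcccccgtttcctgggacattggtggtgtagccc
RBBP7 promoter, chrX:16870363-16870612, minus strand: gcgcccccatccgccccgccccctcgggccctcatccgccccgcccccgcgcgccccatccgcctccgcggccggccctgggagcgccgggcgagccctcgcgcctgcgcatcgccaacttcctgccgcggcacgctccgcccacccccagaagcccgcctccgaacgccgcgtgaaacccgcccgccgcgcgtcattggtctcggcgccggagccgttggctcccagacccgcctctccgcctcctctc
PHF19 promoter, chr9:120877189-120877438, minus strand: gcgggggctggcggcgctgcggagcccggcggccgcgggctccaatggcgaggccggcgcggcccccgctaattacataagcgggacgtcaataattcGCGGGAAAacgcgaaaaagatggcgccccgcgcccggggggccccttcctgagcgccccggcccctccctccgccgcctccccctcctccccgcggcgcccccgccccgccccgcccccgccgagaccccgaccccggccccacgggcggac
The motif was searched on both strands as TTTCCCGC, TTTCGCGC, TTTGCCGC or TTTGGCGC, whose reverse complements are GCGGGAAA, GCGCGAAA, GCGGCAAA and GCGCCAAA. A match stood in at least 1 window of 4 of the 10 members, against 3.4% of 27305 genes with a window. Counted from the start that each window precedes, the match began at -189 in SUZ12, -152 in PHF19, -150 in AEBP2 and -115 in EZH1. The PHF19 and AEBP2 windows with a match precede internal starts, at chr9:120877188 and chr12:19440599, and not the outermost starts of these genes. EZH2, EED, RBBP4, RBBP7, JARID2 and MTF2 had none of these letters in their windows. CG dinucleotides numbered 38 in the EZH2 window, 34 in SUZ12, 40 in RBBP7 and 39 in PHF19, but 11 in EED, which is the median of all windows. Every form of the motif contains CG, and the 3.4% was not matched for CG content. The 4 of 10 therefore cannot be read as an excess of the motif beyond what windows rich in CG hold. A match is a description of the letters and shows no binding.

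The files carry no read totals. Depth was estimated from the steps between low RPKM values (RPKM, reads normalized to gene length and library size). It came to 7590000 to 7840000 reads in siEZH2 AI and 9560000 to 12000000 in siEZH2 AD libraries, 9010000 to 12900000 in mock AI and 9640000 to 12100000 in mock AD, and 18500000 to 51200000 in untreated AI and 17400000 to 58300000 in untreated AD. Replicates of RNA-seq correlated at 0.973 to 0.99 (Pearson, across genes). Mitochondrially encoded genes held 2.1% to 4.07% of the summed RPKM in transfected libraries and 18.4% to 33.4% in untreated ones, so transfection and other differences between these sets of libraries cannot be told apart. All 10 luminal markers were present in every library, with sums of 2750.66 to 3300.17 RPKM in untreated AI cells and 5204.29 to 7041.82 in untreated AD cells. Basal markers summed to at most 4.56 RPKM, stromal markers to at most 1.0, and blood and endothelial markers to at most 3.53, with up to 2 of 3, 3 of 4 and 3 of 4 of them listed at 0 in a library. In bulk libraries, fewer cells of a type and less RNA per cell cannot be told apart.

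The first question was which subunits differ between untreated AI and AD cells. The catalytic subunit EZH2 and the scaffold SUZ12 were higher in AI, RBBP7 was slightly higher, and none of the accessory subunits passed the test. Limma called 3 of the 10 members higher and 0 lower at an adjusted p of 0.05, where 34.6% of the 14227 genes tested were called, 22.2% higher and 12.4% lower. The members had a median log2 change of 0.19, and all genes one of 0.13. Changes are AI minus AD differences of log2(RPKM + 0.5), a scale on which low genes change less than their RPKM do.

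EZH2 stood at 10.11 and 12.62 RPKM in untreated AI cells, against 5.21 and 6.94 RPKM in untreated AD cells. Both AI libraries lay above both AD libraries, and the log2 change was 0.86 (SE 0.183, limma adjusted p = 0.00606). SUZ12 stood at 6.44 and 7.5 RPKM in untreated AI and at 3.13 and 4.52 RPKM in untreated AD cells, again without overlap. Its log2 change was 0.80 (SE 0.172, limma adjusted p = 0.00608). The expressed pseudogene SUZ12P1, at 1.19 to 4.55 RPKM over the 12 libraries, could share reads with SUZ12, so the SUZ12 values are uncertain. RBBP7 had 37.03 and 30.23 RPKM in untreated AI against 25.65 and 26.92 RPKM in untreated AD cells. The groups did not overlap, but the change was small at 0.34 (SE 0.114, limma adjusted p = 0.0426), and 7 of 11 alternatives ended the call, with adjusted p from 0.0617 to 0.27. When limma was given no transfected libraries it called none of the 10, with adjusted p = 0.0636 for EZH2 and 0.0766 for SUZ12.

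The other 7 members did not pass in untreated cells. EED, the reader of the mark, had 9.32 and 8.07 RPKM in untreated AI against 7.45 and 5.17 RPKM in untreated AD cells. The groups did not overlap, and the log2 change of 0.45 had a 95% interval of -0.02 to 0.92. JARID2, which brings PRC2 to its targets, had 5.92 and 7.67 RPKM in untreated AI against 8.02 and 9.28 RPKM in untreated AD cells. Its change of -0.33 had an interval of -0.67 to 0.00, and quantile normalization called it lower at -0.54 (adjusted p = 0.0332). EZH1, RBBP4, MTF2, PHF19 and AEBP2 had changes between -0.18 and 0.24. PHF19 was the lowest member, at 1.1 and 0.66 RPKM in untreated AI and 1.04 in both untreated AD libraries.

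The order of the levels differed between the lines. In untreated AI cells RBBP7, RBBP4, EZH2 and EED came first, without overlap between neighbours, and SUZ12, JARID2, AEBP2 and EZH1 followed at 5.45 to 7.67 RPKM, each overlapping the next. In untreated AD cells JARID2, at 8.02 to 9.28 RPKM, came right after RBBP7 and RBBP4. EED, EZH2, EZH1 and AEBP2 overlapped between 5.09 and 7.45 RPKM there, and SUZ12 overlapped MTF2.

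**Figure D1:**
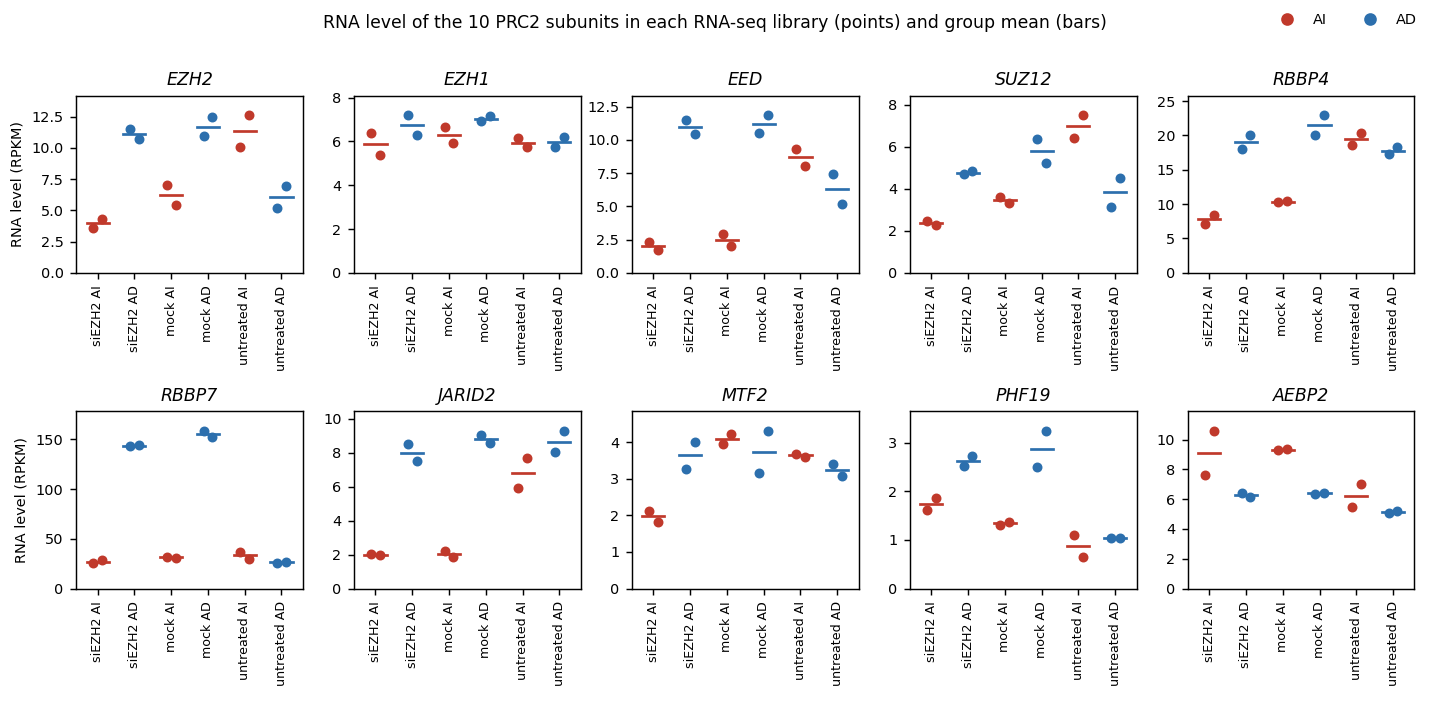
RNA level of each PRC2 subunit in RPKM (linear axis from 0, a different scale in each panel), with 1 point per library and a bar at the mean of the 2 libraries of a group, AI in red and AD in blue. RBBP7 reaches 142.87 to 158.34 RPKM in the transfected AD libraries and stays at 25.5 to 37.03 RPKM in every AI library, while EZH1 lies between 5.37 and 7.19 RPKM in all 12 libraries.

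After mock siRNA most subunits were called lower in AI, among them the 3 that were called higher in untreated AI cells. RBBP7, EED, JARID2, RBBP4, EZH2, PHF19 and SUZ12 were lower in AI than in AD cells, and AEBP2 was higher. That made 7 of 10 members lower and 1 higher, where limma called 55.7% of all genes, 43.5% lower and 12.2% higher. The median change was -0.86 for the members and -0.41 for all genes, so each change is to be read against that shift. After quantile normalization or trimmed mean scaling, which rescale the libraries to each other, 4 members were lower and 3 higher. Of all 14227 genes, 3522 were then lower and 3440 higher with quantile normalization, and 3869 lower and 3790 higher with trimmed mean scaling.

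The members that kept their call as lower in AI than in AD under both scalings were EED, RBBP4, RBBP7 and JARID2. RBBP7 had 32.27 and 30.52 RPKM in mock AI cells, against 158.34 and 152.63 RPKM in mock AD cells. The AD libraries stood far above the AI libraries, and the log2 change was -2.29 (SE 0.114, limma adjusted p = 6.13e-07). EED had 2.92 and 2.01 RPKM in mock AI against 10.53 and 11.86 RPKM in mock AD cells, a change of -1.99 (SE 0.21, limma adjusted p = 3.89e-05). JARID2 had 2.24 and 1.89 RPKM in mock AI against 9.04 and 8.59 RPKM in mock AD cells, a change of -1.86 (SE 0.151, limma adjusted p = 8.13e-06). The groups of both genes were wide apart. RBBP4 had 10.28 and 10.42 RPKM in mock AI against 20.03 and 22.93 RPKM in mock AD cells, without overlap and with a change of -1.02 (SE 0.122, limma adjusted p = 9.24e-05).

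The catalytic and scaffold subunits depended on the scaling. EZH2 had 7.07 and 5.44 RPKM in mock AI against 10.95 and 12.48 RPKM in mock AD cells. The AI libraries were the lower ones, the reverse of untreated cells, with a change of -0.86 (SE 0.183, limma adjusted p = 0.00286). After quantile normalization it was -0.35 (adjusted p = 0.155) and after trimmed mean scaling -0.36 (adjusted p = 0.135). SUZ12 had 3.63 and 3.31 RPKM in mock AI against 6.35 and 5.23 RPKM in mock AD cells, a change of -0.66 (SE 0.172, limma adjusted p = 0.00876). Those scalings gave -0.06 and -0.18, neither of them called, and leaving out AD mock replicate 1 or AI mock replicate 2 also ended the SUZ12 call (-0.53 and -0.60).

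Among the accessory subunits, PHF19, the Polycomb-like protein with the lowest level, had 1.31 and 1.38 RPKM in mock AI against 2.5 and 3.24 RPKM in mock AD cells. It was lower in both AI libraries at -0.86 (SE 0.185, limma adjusted p = 0.00309), but at -0.18 and -0.44 under the scalings, without a call. AEBP2, a zinc finger protein that stabilizes the complex, had 9.27 and 9.38 RPKM in mock AI against 6.38 and 6.41 RPKM in mock AD cells. It was higher in AI without overlap, by 0.51 (SE 0.161, limma adjusted p = 0.0217) and by 1.01 under either scaling, though the call was lost without any single one of the 4 libraries (0.50 to 0.52). MTF2 and EZH1 had changes of 0.13 and -0.15 and were not called. Under quantile normalization both were called higher, MTF2 by 0.72 and EZH1 by 0.39, and under trimmed mean scaling by 0.60 and 0.34.

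After siEZH2 the same 7 members were lower in AI, as was MTF2, and AEBP2 was higher, which gives 8 of 10 lower and 1 higher, where 57.7% of all genes were called, 47.1% lower and 10.6% higher. The siEZH2 and mock comparisons use different libraries, all collected 24 h after transfection, and are not taken as independent experiments. RBBP7 had 25.5 and 28.28 RPKM in siEZH2 AI cells against 142.87 and 144.48 RPKM in siEZH2 AD cells, a change of -2.40, close in size to that after mock siRNA. EED changed by -2.19, JARID2 by -1.77 and RBBP4 by -1.24, and these 4 were again called lower under both scalings. EZH2 had 3.6 and 4.33 RPKM in siEZH2 AI against 11.52 and 10.73 RPKM in siEZH2 AD cells. The groups were far apart, with a change of -1.38 (SE 0.183, limma adjusted p = 0.000156) that both scalings also called, at -0.75 and -0.83. EZH1 was at -0.19 and not called, though both scalings called it higher (0.41 and 0.37). The PHF19 call was marginal at -0.48 (adjusted p = 0.0491) and was lost in 9 of 11 alternatives. SUZ12, at -0.88, and MTF2, at -0.74, were not called under either scaling. AEBP2, at 0.48, was 1.02 and 1.04 under the scalings but lost its call without AD siEZH2 replicate 1, AD siEZH2 replicate 2 or AI siEZH2 replicate 2, at 0.26 to 0.51.

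**Figure D2:**
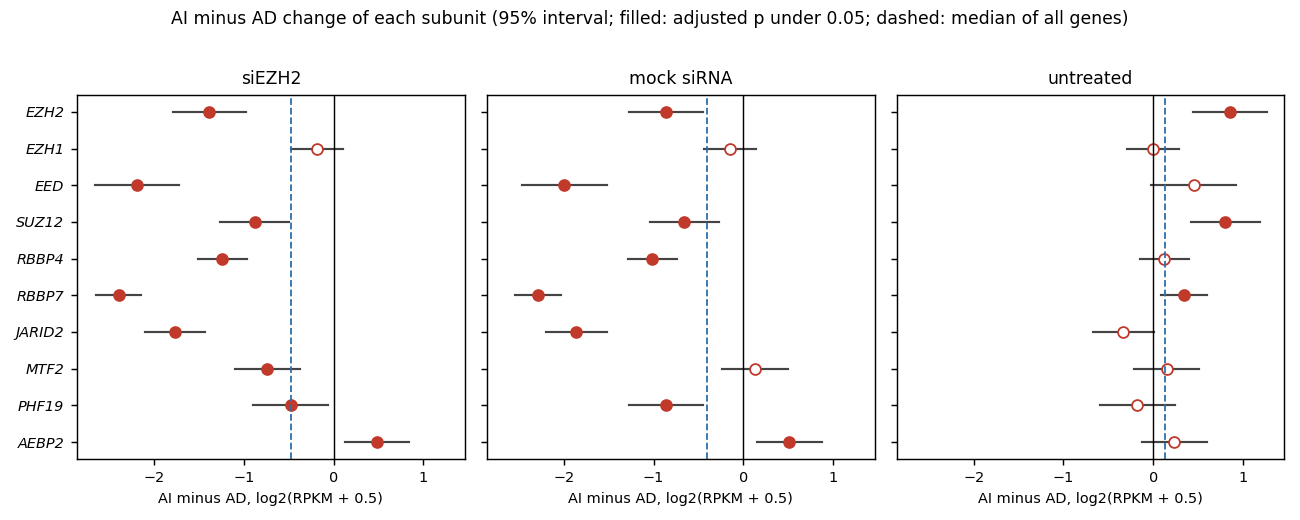
AI minus AD change of each subunit on the log2(RPKM + 0.5) scale, with its 95% interval from limma, after siEZH2, after mock siRNA and in untreated cells. Filled points have an adjusted p under 0.05, and the dashed line is the median change of all 14227 genes (-0.48, -0.41 and 0.13). EED, RBBP7 and JARID2 lie far left of that line in both transfected panels, and EZH2 and SUZ12 lie right of it in untreated cells.

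The difference between mock and untreated cells was tested directly, as the AI minus AD change after mock siRNA minus that in untreated cells. It was lower for 6 members, where 50.2% of all genes were called, 41.2% lower and 8.99% higher: EZH2, EED, SUZ12, RBBP4, RBBP7 and JARID2. The values ran from -2.63 for RBBP7 (SE 0.161, limma adjusted p = 4.37e-06) to -1.14 for RBBP4 (SE 0.173, limma adjusted p = 0.000541), against a median of -0.54 for all genes. EZH2 differed by -1.72 (SE 0.259, limma adjusted p = 0.000513). PHF19, EZH1, MTF2 and AEBP2 were not called, at -0.68 to 0.27. The 6 calls held under both scalings except that of RBBP4 with trimmed mean scaling (-0.47, adjusted p = 0.0558). The scalings split the members into 6 lower and 3 higher (quantile normalization) or 5 lower and 2 higher (trimmed mean). Of all 14227 genes they called 2902 lower and 2620 higher, or 3073 lower and 2993 higher.

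Set against untreated cells of their own line, mock AI and mock AD cells differed in which subunits were called. In AI cells 5 members were lower after mock siRNA and 1 was higher, where 57.1% of all genes were called, 35.5% lower and 21.5% higher. EED changed by -1.65, JARID2 by -1.50, SUZ12 by -0.91, RBBP4 by -0.88 and EZH2 by -0.82, and all of these were called in each of 11 alternatives. AEBP2 was 0.56 higher, a call lost without AI mock replicate 1, AI mock replicate 2 or AI untreated replicate 1 (0.39 to 0.57). RBBP7 did not pass in AI, with a change of -0.09 (interval -0.35 to 0.17), and neither did EZH1, MTF2 and PHF19, at 0.07 to 0.44. Both scalings kept the 5 falls and AEBP2, but quantile normalization also called PHF19 (0.84), MTF2 (0.52) and EZH1 (0.37) higher, which gives 4 higher and 5 lower, and trimmed mean scaling also called PHF19 (0.63). Of all 14227 genes, 3727 were higher and 3810 lower with quantile normalization, and 4023 higher and 4082 lower with trimmed mean scaling.

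In AD cells 5 members were higher after mock siRNA and 0 lower, where 45.4% of all genes were called, 37.6% higher and 7.73% lower. RBBP7 had 158.34 and 152.63 RPKM in mock AD against 25.65 and 26.92 RPKM in untreated AD cells, and its change of 2.54 (SE 0.114, limma adjusted p = 8.82e-07) exceeded that of 99.2% of all genes. PHF19 rose by 1.12 (SE 0.185, limma adjusted p = 0.00105). EZH2, EED and SUZ12 rose by 0.90, 0.80 and 0.55, and neither scaling called these 3. The SUZ12 call also ended in a fit of those 2 groups only (0.55, adjusted p = 0.099) and without AD untreated replicate 1 (0.32) or AD mock replicate 1 (0.42), and the EED call without AD untreated replicate 2 (0.55) or AD mock replicate 2 (0.72). JARID2, MTF2, EZH1, RBBP4 and AEBP2 were not called, at 0.03 to 0.28, and lay between -0.42 and -0.10 under the scalings, again without a call. All these contrasts share the mock or untreated libraries with the AI and AD comparisons above. Depth and the mitochondrial share differ between the transfected and untreated libraries, and their part in these changes was not tested.

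The siRNA was directed at EZH2. In AI cells EZH2 had 3.6 and 4.33 RPKM after siEZH2 against 7.07 and 5.44 RPKM after mock siRNA. Both siEZH2 libraries were the lower ones, but the change of -0.59 (SE 0.183) did not pass over all genes (limma adjusted p = 0.126). It lay between -0.77 and -0.42 over 11 alternatives. In AD cells EZH2 had 11.52 and 10.73 RPKM after siEZH2 against 10.95 and 12.48 RPKM after mock siRNA. These groups overlapped, and the change of -0.07 had an interval of -0.48 to 0.34. The AD libraries labelled siEZH2 thus hold no fall of EZH2 RNA that was detectable, and the effects in AI and AD were not shown to differ (-0.52, limma adjusted p = 0.767).

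MTF2 was the one subunit called after siEZH2. It had 2.11 and 1.83 RPKM in siEZH2 AI cells against 3.95 and 4.23 RPKM in mock AI cells, without overlap, a change of -0.90 (SE 0.162, limma adjusted p = 0.0387). Limma called 1.46% of all genes in AI, 1.39% lower and 0.0703% higher. The MTF2 call was lost in 7 of 11 alternatives: with no filter on low values, under either scaling, and without any single library of the 4, with changes between -0.98 and -0.69 and adjusted p from 0.0606 to 0.207. In AD cells MTF2 had 3.27 and 4 RPKM after siEZH2 against 3.16 and 4.3 RPKM after mock siRNA, and the groups overlapped. The difference between the AI and AD effects did not pass (-0.87, limma adjusted p = 0.49). In AI cells SUZ12 was at -0.47 and RBBP4 at -0.39, neither called, and EED, RBBP7, JARID2, EZH1, AEBP2 and PHF19 lay between -0.23 and 0.28. In AD cells none of the 10 members was called, with changes of -0.25 to -0.02. Limma called 0.0141% of all genes there, while 544 genes had an unadjusted p under 0.05.

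Ratios of 2 subunits within a library depend little on the scaling between libraries, so 5 of them were compared between AI and AD over all 12 libraries. The test was an exact permutation test, two-sided, with AI and AD labels permuted within each state, and p was adjusted over the 5 ratios. JARID2 relative to MTF2, 1 gene from each of the alternative accessory assemblies, was lower in AI by a mean log2 ratio of -1.17 (exact p = 0.00926, the smallest that 216 permutations allow, adjusted p = 0.0463). The AI minus AD difference was -0.48 in untreated cells, -1.99 after mock siRNA and -1.03 after siEZH2. This ratio describes these 2 genes and not their assemblies. AEBP2, placed with JARID2, was higher in AI after mock siRNA (0.51) and siEZH2 (0.48). PHF19, placed with MTF2, was lower there (-0.86 and -0.48), though neither scaling called it. SUZ12 relative to EED was higher in AI, by 1.00 on the log2 scale (exact p = 0.0185, adjusted p = 0.0463). It differed by 0.35, 1.34 and 1.31 in untreated, mock and siEZH2 cells. The untreated AI and AD libraries overlapped, and the call was lost without AD untreated replicate 1, AD mock replicate 2, AI untreated replicate 2 or AI mock replicate 2 (0.84 to 0.95).

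The ratio of the catalytic paralogs, EZH2 to EZH1, turned direction between states. It was 0.86 higher in AI than in AD for untreated cells, but differed by -0.71 after mock siRNA and by -1.20 after siEZH2, so that its mean of -0.35 did not pass (exact p = 0.306). EZH1 itself lay between 5.37 and 7.19 RPKM in all 12 libraries. RBBP7 relative to RBBP4 differed by -1.27 after mock siRNA and by -1.16 after siEZH2, with 0.22 in untreated cells, and its mean of -0.74 did not pass either (exact p = 0.0556, adjusted p = 0.0926). PHF19 relative to MTF2 averaged -0.35 (exact p = 0.148).

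**Figure D3:**
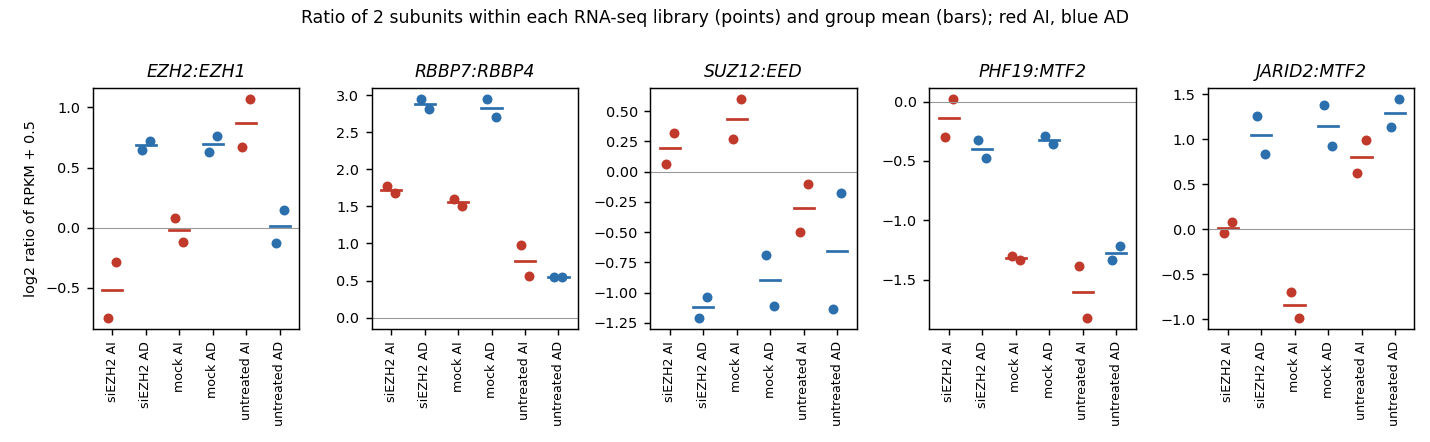
Log2 ratio of 2 subunits, each as RPKM + 0.5, in every RNA-seq library (points) with the mean of the 2 libraries of a group (bars), AI in red and AD in blue. JARID2 relative to MTF2 is lower in AI in all 3 states, by 0.48 or more, and EZH2 relative to EZH1 is above AD in untreated AI cells and below it after either siRNA.

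Across the 12 libraries some subunits kept close company. EZH2 and SUZ12 correlated at r = 0.918, RBBP4 and JARID2 at 0.945, and EED with RBBP4 at 0.932 and with JARID2 at 0.92 (Pearson, log2 scale). RBBP7 was closest to PHF19 (0.843), and AEBP2 ran against JARID2 (-0.857). The 12 points form 6 groups and share any difference in scaling, so these are descriptions without a test. Of 10882 genes searched, RB1 had the pattern most like EZH2 (r = 0.993), ahead of ETFDH (0.983), EXOC1 (0.982), PIK3CB and CLIP1 (0.981 each). RB1 had 4.56 and 5.35 RPKM in untreated AI against 1.46 and 2.3 RPKM in untreated AD cells, and 2.38 and 1.91 RPKM in mock AI against 4.36 and 5.11 RPKM in mock AD cells. It thus crossed over between untreated and mock cells as EZH2 did. LCN2 (0.995), OASL (0.993), APOL3, CERK and RSAD2 (0.992 each) were most like RBBP7. OASL had 0.34 and 0.26 RPKM in mock AI against 64.51 and 58.29 RPKM in mock AD cells, and at most 0.62 RPKM in any untreated library.

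Other genes of the pathway were taken from lists. Of 5 further PRC2 partners 4 could be tested, and the call for EPOP, which links PRC2 to elongin, was the strongest of them. EPOP had 6.1 and 3.99 RPKM in untreated AI against 15.83 and 11.74 RPKM in untreated AD cells, a change of -1.38 (limma adjusted p = 0.000786). It had 2.01 and 2.4 RPKM in mock AI against 13.88 and 12.47 RPKM in mock AD cells, a change of -2.34. Both groups were apart in each state, and both scalings called EPOP lower in each. PHF1, the third Polycomb-like protein, was lower in untreated AI (-0.67), with 6.56 and 5.72 RPKM against 9.32 and 10.78 RPKM in untreated AD cells. After mock siRNA PHF1 changed by -0.37 (adjusted p = 0.0366), which was 0.15 and not called under trimmed mean scaling. LCORL was higher in mock AI (0.90), and LCOR was not called in either state. EZHIP, an inhibitor of PRC2, was not found under that symbol among the listed genes and was not tested. Of the enzymes that remove the mark, KDM6B was lower in untreated AI cells (-0.78) and KDM6A in mock AI cells (-1.29).

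RBBP4 and RBBP7 also belong to other complexes. Of 21 genes tested from those complexes, 4 were higher and 6 lower in untreated AI cells, beside 22.2% higher and 12.4% lower of all genes. Both scalings gave 1 higher and 6 lower. Of all 14227 genes, quantile normalization called 2336 higher and 2291 lower, and trimmed mean scaling 2217 higher and 2323 lower. Among those called were the histone acetyltransferase HAT1 (1.29), the deacetylase HDAC2 (0.58), MBD3 (-0.92) and SAP30 (-0.78). After mock siRNA 3 were higher and 10 lower, beside 12.2% higher and 43.5% lower of all genes, with SAP30 at 1.56, MBD2 at 0.78, the chromatin assembly subunit CHAF1A at -1.80 and the corepressor SIN3A at -1.61. Quantile normalization gave 5 higher and 8 lower there and trimmed mean scaling 6 higher and 5 lower, so no direction is given for this list.

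E2F factors, the RB1 protein that restrains them, and replication genes act in the cell cycle. Of 20 such genes 10 were higher and 0 lower in untreated AI cells, where 22.2% of all genes were higher, with a median of 0.56 against 0.13 for all genes. The higher ones include RB1 (1.22) and the replication clamp PCNA (1.04). After mock siRNA 1 was higher, RRM1 (0.33), and 16 were lower, including the helicase subunit MCM3 (-2.53) and E2F3 (-1.70), where 43.5% of all genes were lower, with a median of -1.17 against -0.41 for all genes. After siEZH2 19 were lower, where 47.1% of all genes were. The scalings gave 9 higher and 1 or 2 lower in untreated cells, 1 or 2 higher and 12 or 13 lower after mock siRNA, and 0 or 2 higher and 13 or 14 lower after siEZH2. Of all 14227 genes they called 2336 or 2217 higher in untreated cells. They called 3522 or 3869 lower after mock siRNA and 3358 or 3870 lower after siEZH2. The part of these genes in the PRC2 values was not tested. Of 21 developmental genes that Polycomb often silences, 3 were expressed enough to test. None of these 3 was called in untreated cells. In mock AI cells 2 were lower, LHX2 among them (-0.70), where 43.5% of all genes were lower, but both scalings gave 0 lower and 1 higher, so no direction is given.

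RIP asked which RNAs come down with EZH2. EZH1 and EZH2 transcripts had the largest differences of antibody over IgG among the 10 in both lines, but no member passed the test in either line. Limma called 0% of 13667 genes in AI and 0% in AD, while 2930 and 1383 genes had an unadjusted p under 0.05. With a replicate block, an alternative fit, EZH2 (limma adjusted p = 0.0239) and EZH1 (0.0155) were called in AI and no member in AD. That fit called 9.79% of all genes in AI. EZH1 RNA had 26.28 and 36.02 RPKM with the EZH2 antibody against 4.21 and 2.65 RPKM with IgG in AI cells. The difference was 3.02 (SE 0.552, limma adjusted p = 0.109), against a median of 0.88 for all genes. EZH2 RNA had 19.81 and 15.6 RPKM with the antibody against 3.73 and 0 RPKM with IgG in AI cells, a difference of 3.64 (SE 0.948, limma adjusted p = 0.109). Antibody and IgG libraries did not overlap for either gene, but the EZH2 value leans on the listed 0: it was 2.10 without that IgG library, replicate 2, and between 3.10 and 4.84 with pseudocounts of 1 and 0.1.

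In AD cells EZH1 RNA had 24.58 and 26.06 RPKM with the antibody against 11.01 and 7.09 RPKM with IgG, a difference of 1.47 (limma adjusted p = 0.425). EZH2 RNA had 23.28 and 16.21 RPKM with the antibody against 10.54 and 4.4 RPKM with IgG, a difference of 1.44 (adjusted p = 0.66). The antibody libraries were again the higher ones. EED, SUZ12, RBBP4, RBBP7, JARID2, MTF2, PHF19 and AEBP2 had differences of 0.38 to 1.98 in AI and 0.04 to 1.38 in AD cells. The antibody libraries of AI and AD did not differ detectably for any member, with changes of -0.32 to 0.37 and, for EZH2 RNA, an interval of -2.27 to 1.99 around -0.14.

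The depth of the IgG libraries limits these values. The antibody libraries held an estimated 4600000 to 7830000 reads in AI and 7050000 to 8140000 in AD cells, but the IgG libraries 78700 to 600000 in AI and 363000 to 1850000 in AD cells. In AI IgG replicate 2, 1 read of a transcript of 3000 nucleotides is worth 4.24 RPKM, so its 0 for EZH2, EED, PHF19 and AEBP2 is a listed 0 and no sign of absence. IgG replicates correlated at 0.557 in AI and 0.66 in AD, and antibody replicates at 0.861 and 0.885. Leaving out AI IgG replicate 1, which leaves only the shallowest library as control, called EZH2 (5.18, adjusted p = 0.0231), EZH1 (3.31, adjusted p = 0.0331) and EED (3.31, adjusted p = 0.0424), with 5.44% of all genes called. The enrichments of AI and AD were not shown to differ. For EZH2 the difference was 2.20 (limma adjusted p = 1), with 0.66 without AI IgG replicate 2 and 3.74 without AI IgG replicate 1.

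**Figure D4:**
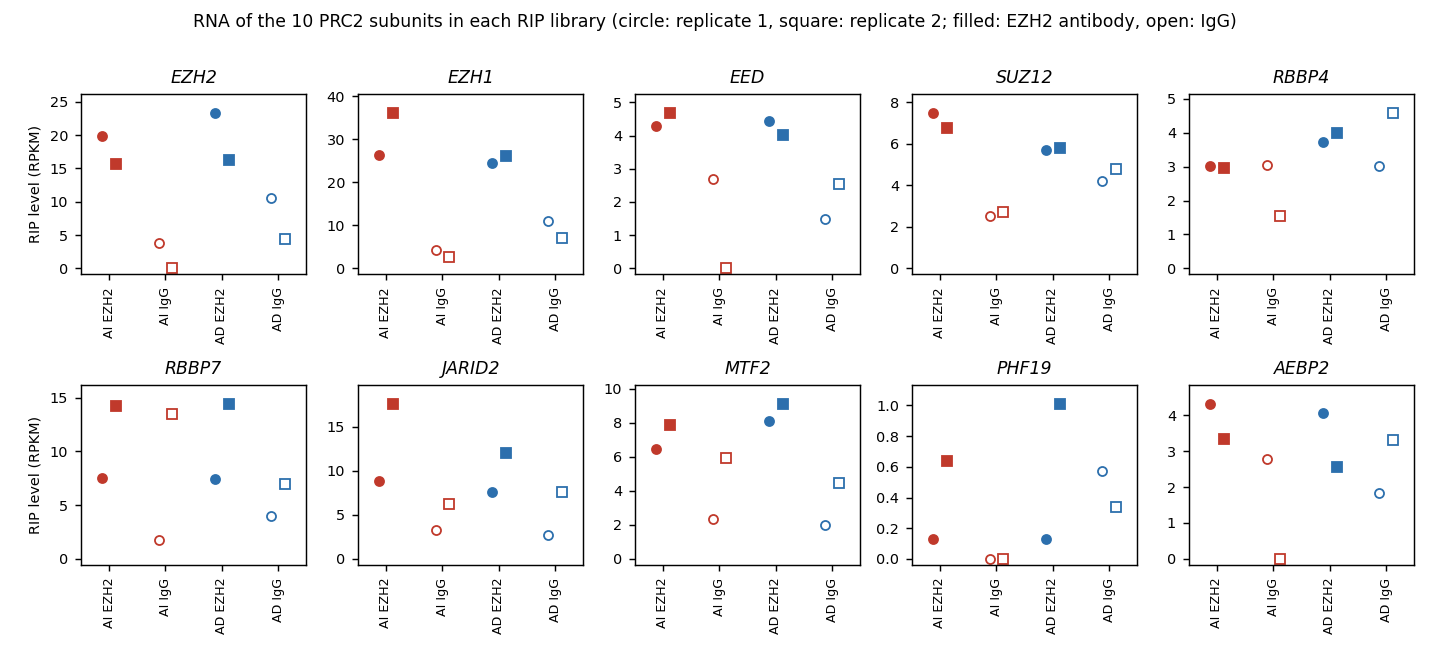
RPKM of each subunit's RNA in the 8 RIP libraries (linear axis, a different scale in each panel), with AI in red, AD in blue, filled symbols for the EZH2 antibody, open symbols for IgG, circles for replicate 1 and squares for replicate 2. EZH1 and EZH2 RNA lie at 15.6 RPKM or above in all 4 antibody libraries and at 11.01 RPKM or below in all 4 IgG libraries.

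The peak lists were used to ask whether PRC2 and its mark sit on the genes that encode PRC2. H3K27me3 peaks overlapped 1 of the 10 gene spans in both AI lists, PHF19, and 0 of 10 in both AD lists. Of 20033 protein-coding genes 17.4% had a peak in both AI lists and 15.8% in both AD lists. The windows of 2 kb on either side of the outermost starts held a peak in both lists for none of the 10 members, against 6.37% of 15842 genes in AI and 7.07% in AD. Scores below are the authors' own, which were at least 50 in every list and were used only to describe peaks.

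The PHF19 peaks of the 2 AI lists lay at different places. In replicate 1 a peak of 1629 bases (score 77.12) covered the outermost start and another of 1373 bases (108.33) was centred 4310 bases into the gene. In replicate 2 a peak of 3891 bases with a score of 2762.02 spanned chr9:120875555-120879445, over the internal RefSeq start whose promoter is printed above, and one of 1567 bases (100.73) was centred 9462 bases into the gene. PHF19 RNA was low in untreated cells of both lines, with 1.1 and 0.66 RPKM in AI and 1.04 RPKM in both AD libraries. JARID2 had 1 H3K27me3 peak in AI replicate 1 alone, 161682 bases from its start.

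EZH2 ChIP peaks over the members had scores of 50.11 to 117.21. The single AI list had peaks over EED and MTF2, where 20.4% of all genes had one, and both AD lists had peaks over EZH2, EZH1 and JARID2, where 18% of all genes did. At a score of 100 or more no member had an EZH2 peak in the AI list or in both AD lists, where only 0.619% and 0.434% of all genes had one. The 2 AD peaks over EZH2 overlapped, at chr7:148807829-148808649 (score 60.52) and chr7:148808459-148808959 (51.5), centred 76052 and 75582 bases from the start near the end of the gene. The EZH1 and JARID2 peaks of the 2 AD lists did not overlap each other. Within 2 kb of an outermost start the AI list had 1 EZH2 peak, where 2.46% of 15842 genes had one. It was centred at -563 relative to the outermost AEBP2 start (68.85), which is not the internal start of the AEBP2 promoter window above. Both AD lists together had none, where 1.41% of genes did. The AD lists held 53767 and 12360 peaks and the AI list 11897. The longer AD list reached 8 of the members by itself, where 46.9% of all genes had a peak in it.

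**Figure D5:**
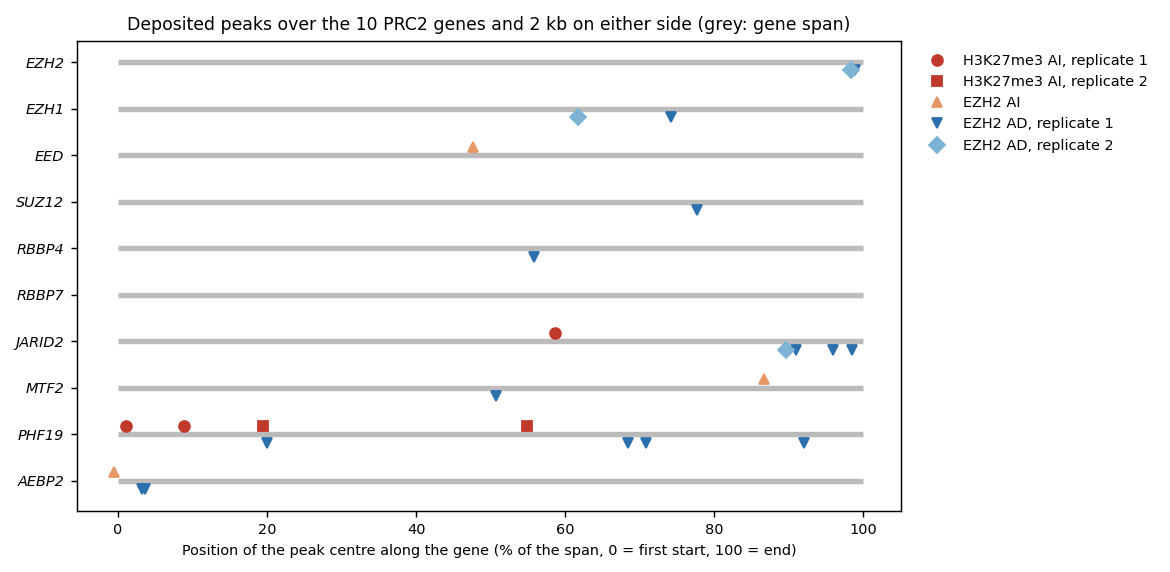
Centres of the deposited peaks along each PRC2 gene, as a percentage of the gene span from its first start (0) to its end (100), with AI lists above each grey line and AD lists below it. H3K27me3 peaks (red) lie over PHF19 and, in 1 list, JARID2. EZH2 peaks (orange and blue) lie mostly inside the genes, and both AD lists have one at the end of EZH2.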

How the data were processed

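RNA-seq and RIP were measured in 12 and 8 libraries. The authors deposited RPKM values with 2 decimals per Ensembl gene identifier; the submitters' processing notes name cutadapt, TopHat2, Bowtie2, edgeR and the build GRCh38, without roles or versions. How reads were counted, whether by strand, and on which annotation is not given in the sources used here. With each of the 7 ChIP samples the authors deposited 1 list of peaks with a score. Inputs were not analysed separately. No column lacked a sample.

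Genes with 0.5 RPKM or more in at least 2 libraries were tested as log2(RPKM + 0.5) with limma-trend (limma 3.58.1, R 4.3.3), 1 coefficient per group, in a single fit of the 12 RNA-seq libraries and another of the 8 RIP libraries. P-values were adjusted by Benjamini-Hochberg over all genes tested. All 10 members passed that filter in both tables. With 2 libraries a group, all groups share 1 estimate of the spread. Subunit ratios used an exact permutation test. Peaks counted with at least 1 base of overlap with the gene span. Promoters come from RefSeq (GRCh38.p14). The scripts were tested on simulated data. Fits were repeated with pseudocounts of 0.1 and 1, no filter, quantile normalization, trimmed mean scaling, a replicate block, only the groups compared, and each library left out. The scalings of the pathway lists were chosen after seeing the data.

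The members and lists were chosen with earlier results of these data known. All 10 members are named in every comparison, with all further PRC2 partners and H3K27 demethylases, the 2 largest called rises and falls (mean of at least 1 RPKM) of each other pathway list in untreated and mock cells, and the 5 genes most like EZH2 and RBBP7. The marker lists served only to check the cells.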

Additional observations from a re-analysis of the deposited data

Results flagged for a closer look

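For 6 members the AI minus AD change differed between mock-transfected and untreated cells, by a limma test of the difference itself on the log2(RPKM + 0.5) scale (2 libraries in each of 4 groups). The difference was -1.72 for EZH2, -2.44 for EED, -1.46 for SUZ12, -1.14 for RBBP4, -2.63 for RBBP7 and -1.53 for JARID2, with adjusted p between 4.37e-06 and 0.000899, against a median of -0.54 over all genes. In the same test 50.2% of all genes were called in either direction, and 41.2% of all genes were lower.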

How the results depend on the processing

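EED, RBBP4, RBBP7 and JARID2 kept their call as lower in AI, after mock siRNA and after siEZH2, in all 11 alternatives. Counts of members called otherwise moved as follows. In untreated cells a fit of the compared groups alone called 0 in place of 3. For siEZH2 against mock in AI, no filter, quantile normalization and trimmed mean scaling called 0 in place of 1, and for mock against untreated AD cells both scalings called 2 in place of 5. In that AD comparison quantile normalization called 2634 of 14227 genes higher and 2483 lower, and trimmed mean scaling 2594 higher and 2380 lower. With 1 library left out the counts were 2 to 4 (AI against AD, untreated), 6 to 7 (mock), 7 to 8 (siEZH2), 0 to 0 (siEZH2 against mock in AI, and in AD), 5 to 6 and 4 to 4 (mock against untreated in AI and in AD), 6 to 7 (difference of mock and untreated), 0 to 3 (EZH2 RIP in AI) and 1 to 2 (ratios). A lone library was assumed to vary like the other groups. Directions turned for some uncalled changes, among them those of EZH1 (0.39 and 0.34 after mock siRNA, 0.41 and 0.37 after siEZH2, with quantile normalization and trimmed mean scaling), and for PHF19 after siEZH2 (0.27 with quantile normalization, 0 with trimmed mean scaling), PHF1 after mock siRNA (0.15 with trimmed mean scaling), EZH2 for siEZH2 against mock in AD (-0.16 to 0.02 with 1 library left out, 0.02 without AD mock replicate 2) and EZH2 RNA in RIP of AI against AD (-0.4 to 0.11 with 1 library left out, 0.11 without AD antibody replicate 1, 0.03 without AI antibody replicate 2). The cause was not tested. Same-numbered deviations correlated above 0.1 in 3 of 15 RNA-seq and 5 of 6 RIP group pairs (the sixth RIP pair at 0.0972). The highest were 0.701 for untreated AI with untreated AD and 0.713 for the AI and AD antibody groups. The replicate block is 1 term over all groups, so a pairing of the untreated libraries alone was not modelled. With that block EZH2, SUZ12 and RBBP7 kept their calls in untreated cells (limma adjusted p = 0.00627, 0.00795 and 0.0455). The labels name nothing that equal numbers share, and as not every pair passed 0.1 the numbers were not used as pairs, though in RIP they came close. With the replicate block 2 members were called in EZH2 RIP of AI cells in place of 0, EZH2 (adjusted p = 0.0239) and EZH1 (0.0155), with 9.79% of all genes called. For peaks, H3K27me3 in AI gave 0 members in promoter windows and 2 with a peak in either list, and 1 to 2 in single lists, in place of 1. The shares of all genes were 6.37%, 28.2%, and 20.4% to 25.2% in single lists. EZH2 in AD gave 0 at a score of 100 or more, 0 in promoter windows and 8 in either list, and 3 to 8 in single lists, in place of 3. All genes had shares of 0.434%, 1.41% and 50.9%, and 22% to 46.9% in single lists. EZH2 in AI gave 0 at a score of 100 or more, 0 with 500 bases of overlap and 1 in promoter windows, in place of 2. There the shares of all genes were 0.619%, 8.24% and 2.46%. Depth limits the IgG libraries most.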
